A study of Mus musculus with 4 samples.

Results

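Imprinted genes, which are transcribed mainly from the copy inherited from one parent, were read across 4 mouse embryonic stem (ES) cell lines. The 50 genes are known imprinted genes, listed with earlier results of these data known but by a rule that uses no measured level. Probes were used where RefSeq maps their transcript to a listed gene, or where the array annotation names one. Probes that carry an older transcript name of H19, which the RefSeq list used here lacks, were not read. Of the 50 genes, 49 had a probe on the array, and 48 had a value in all 4 lines, out of 37079 genes with a value. The 37079 count each transcript name without a RefSeq gene as a gene of its own. Shares of all genes below therefore include unnamed transcripts and are not matched to the imprinted genes, which are all named. No probe was matched to Rian, and the single probe of Phlda2 was marked as an outlier in 1 line. The 50 genes belong to 12 imprinted domains, with 8 genes listed singly. The lines were parental ES (EB3), clones #1 and #9 of Nup98-HoxA9 ES and a clone of HoxA9-Ct ES, with 1 array each. The Nup98-HoxA9 clones carry a FLAG-tagged fusion of the nucleoporin Nup98 with the homeodomain protein HoxA9, a product of a leukaemia translocation. The HoxA9-Ct clone carries only the C-terminal part of HoxA9 with the homeodomain, which serves as a control for the Nup98 portion. These transgenes were inserted by Tol2 transposition, cells were selected with hygromycin B and each line was grown from a picked colony, so that it stands for a single clone. All 4 lines share the EB3 background and were kept on gelatin with serum and LIF.

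Imprinting is set in the germ line, where DNA methylation is laid down at an imprinting control region in either the egg or the sperm. Such a region silences or permits several genes around it, often through a long noncoding RNA or an insulator bound by CTCF. After fertilisation the zinc finger protein ZFP57 binds methylated copies of these regions and, with TRIM28, keeps them methylated, and ES cells in culture are known to lose or gain such marks at some domains. An array reads the total RNA of a gene and cannot tell the maternal from the paternal copy, so the values below are total levels.

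The 4 one-colour arrays share a slide and a scan. Each level is the processed intensity of a probe divided by the 75th percentile of its array, so that a level of 1.00 stands for that percentile, and the brightest probe stands for a gene that has several. Levels compare the lines at the same probe and do not rank genes. A probe counts as detected where the scanner software marks it as well above background. A fold against a line below background is a lower bound, for which the dim line is put at its own signal or, if that is lower, at the weakest signal well above background on its array. Only the Nup98-HoxA9 group has replicates (2 clones), so the spread in limma comes from the difference between the clones, pooled over all probes. The prior degrees of freedom were infinite, so every gene was tested at the same SD of 0.454 and not at its own spread. An exact permutation test of 2 arrays against 1 cannot go below p = 0.333. Values of single lines have no replicate check.

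Most imprinted genes were transcribed in these ES cells. Detected genes numbered 38 of 48 in parental ES cells, 40 in clone #1, 41 in clone #9 and 38 in the HoxA9-Ct clone, against 54.85%, 55.5%, 58.04% and 54.86% of all genes in the same order. The brightest probe was well above background in all 4 lines for 37 genes (51.88% of all genes were) and in some lines for 5 genes, namely H19, Igf2, Usp29, Asb4 and Kcnk9. The 6 genes below background in all lines were Zim1, Klf14, Rtl1, Nnat, Peg13 and Rasgrf1 (39.31% of all genes were). These include Nnat, a proteolipid of neurons, and Rasgrf1, a Ras exchange factor of brain.

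**Figure D1:**
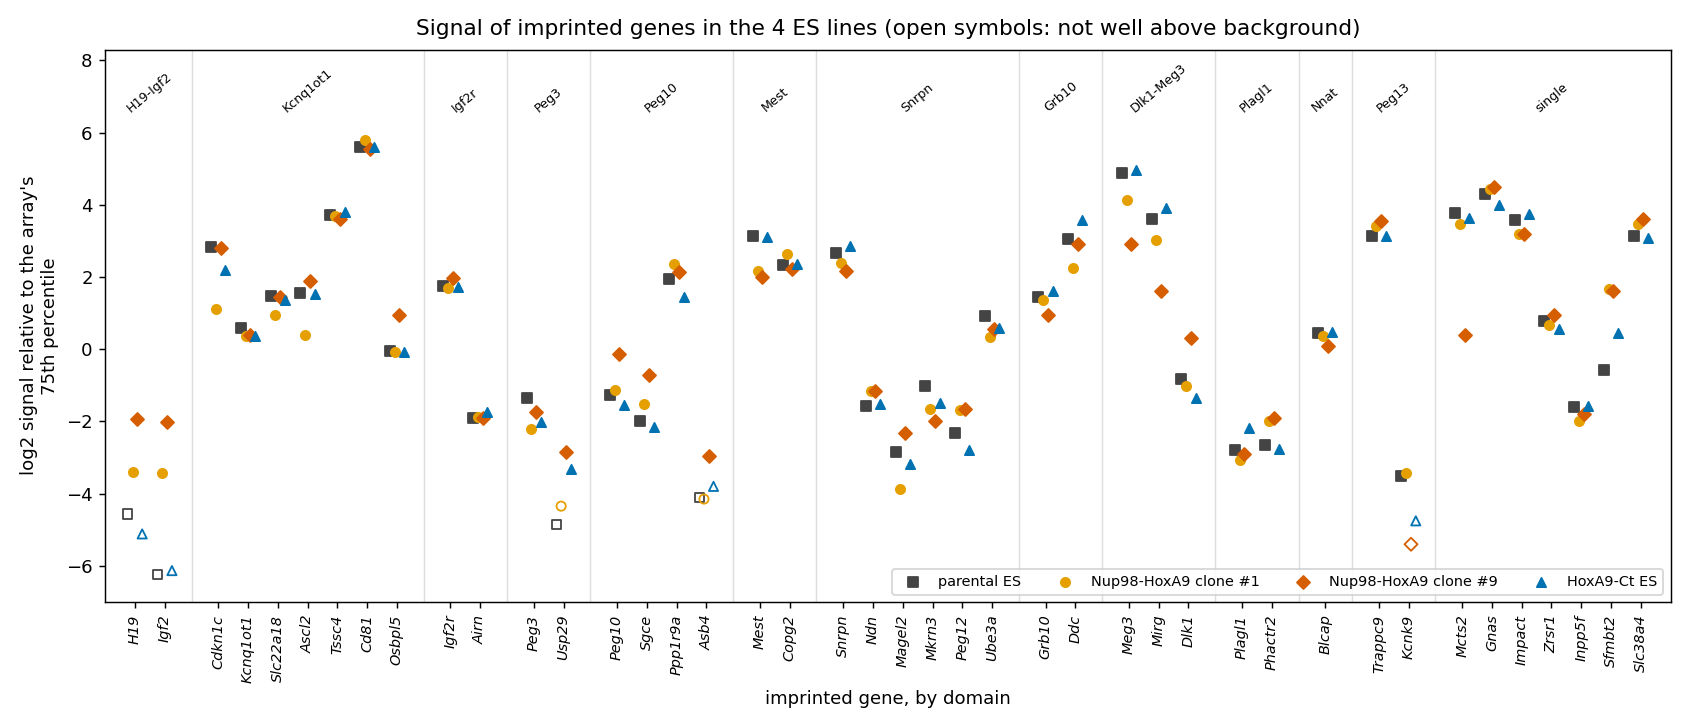
The vertical axis gives the log2 level of each imprinted gene detected in at least 1 line, with 0 at the 75th percentile of the array, and the horizontal axis lists the genes by imprinted domain, with 1 symbol per line and open symbols where the probe is not well above background. The parental ES points of H19 and Igf2 lie below background while both clones lie above it, and the clone #9 points of Meg3, Mirg and Mcts2 lie below those of the other lines.

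Imprinted genes beyond 2-fold were counted in both clones against parental ES cells, and between the clones. The first count needs 2 ratios to pass and the second needs 1, so their sizes are not comparable. Over all genes, too, the second count was larger. From parental ES cells, 1 gene was more than 2-fold higher in both clones, Sfmbt2 (0.909% of all genes were), and 0 were lower (0.806%). Between the clones, 10 genes were more than 2-fold higher in clone #9 than in clone #1 (2.72% of all genes) and 4 were lower (0.825%). The genes higher in clone #9 were H19, Igf2, Cdkn1c, Ascl2, Osbpl5, Usp29, Peg10, Asb4, Magel2 and Dlk1, and the lower ones were Meg3, Mirg, Kcnk9 and Mcts2. With normexp background correction 2 were higher, Cdkn1c and Ascl2, and 3 were lower, Meg3, Mirg and Mcts2. Restricted to genes detected in all 4 lines, 6 of 37 imprinted genes were higher in clone #9 against 2.99% of all genes, and 3 were lower against 0.78%.

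Against parental ES cells, clone #1 had 1 gene more than 2-fold higher, Sfmbt2 (1.44% of all genes), and 3 lower, Cdkn1c, Ascl2 and Magel2 (1.7%). Clone #9 had 8 higher (3.65%), which were H19, Igf2, Usp29, Peg10, Sgce, Asb4, Dlk1 and Sfmbt2, and 5 lower (1.74%), which were Mest, Meg3, Mirg, Kcnk9 and Mcts2. With normexp background correction these counts in clone #9 were 1 higher, Sfmbt2, and 4 lower, Mest, Meg3, Mirg and Mcts2, and in clone #1 they were 1 higher, Sfmbt2, and 1 lower, Cdkn1c. the HoxA9-Ct clone had 1 higher, Sfmbt2 (0.793%), and 0 lower (0.491%). Sfmbt2 was the 1 imprinted gene more than 2-fold higher in all 3 transgenic lines (0.129% of all genes), and 0 were lower in all 3 (0.256%). These comparisons share the parental array.

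The spread of the ratios shows the same order of lines. Over the 37 imprinted genes detected in all lines, the SD of the log2 ratio to parental ES cells was 0.67 in clone #1, 0.98 in clone #9 and 0.34 in the HoxA9-Ct clone, against 0.45, 0.57 and 0.30 over all 19238 genes so detected. Between clone #9 and clone #1 it was 0.86 against 0.48. The medians were close to 0, at -0.10 in clone #1, -0.04 in clone #9 and -0.05 in the HoxA9-Ct clone, against -0.02, -0.10 and 0.00 for all genes. Of the 37 genes, 26 stayed within 2-fold of parental ES cells in all 3 transgenic lines and 18 within 1.5-fold.

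**Figure D2:**
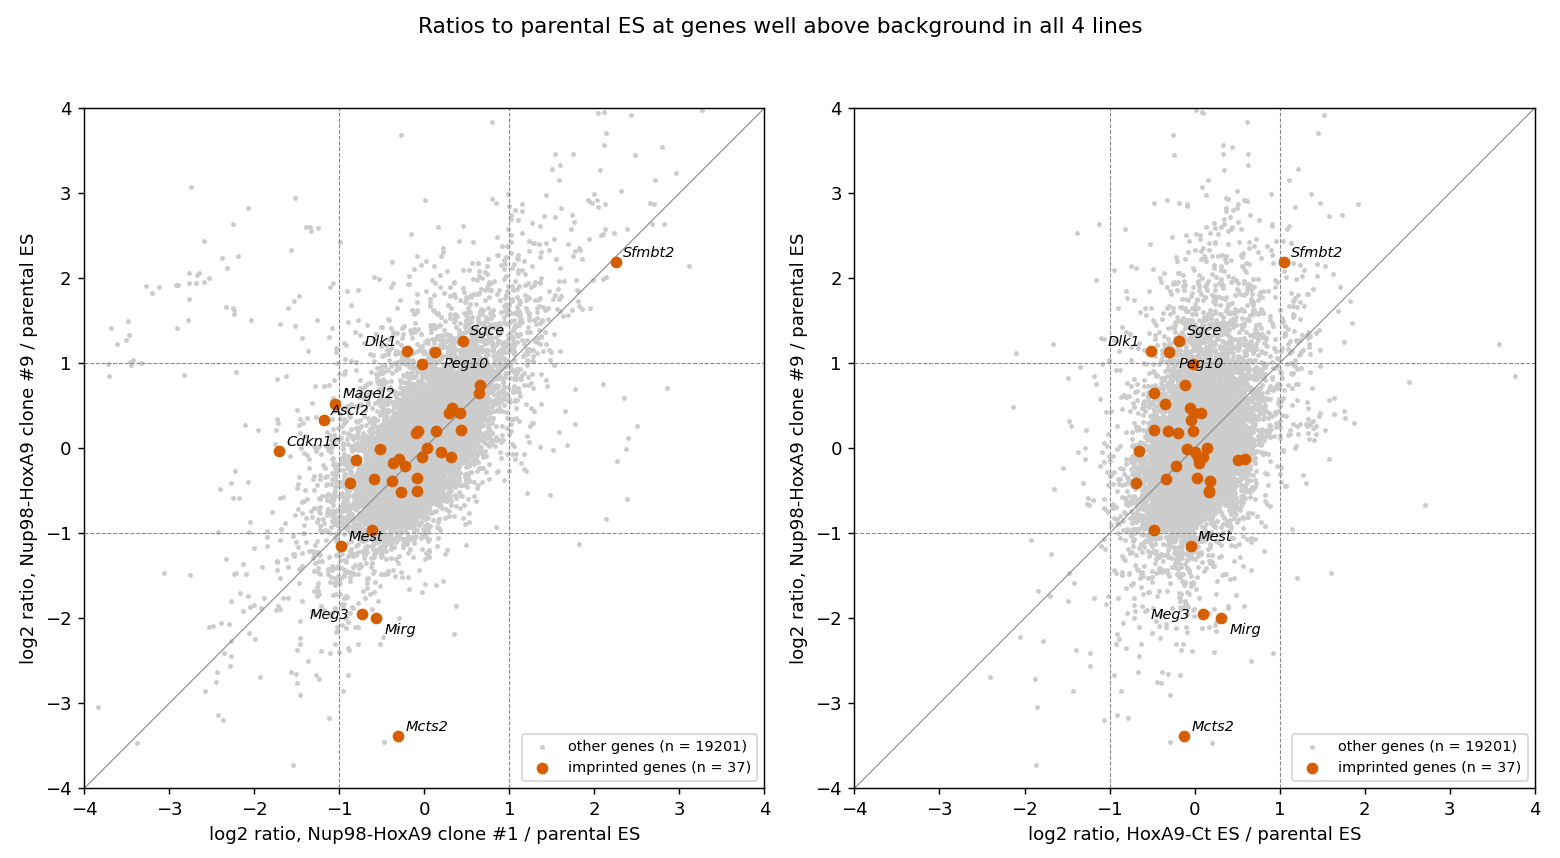
The log2 ratio of clone #9 to parental ES cells (vertical axis) is plotted against that of clone #1 (left) and that of the HoxA9-Ct clone (right), with the 37 imprinted genes detected in all 4 lines in orange over the other 19201 genes so detected in grey, dashed lines at 2-fold, and 17 genes outside the axes. Sfmbt2 sits at the upper right, Mcts2, Meg3 and Mirg lie low on the clone #9 axis, and Cdkn1c and Ascl2 lie to the left on the clone #1 axis; all ratios share the parental array.

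The fit with limma called few of the 48 genes. For Nup98-HoxA9 against parental ES cells, 3 genes were higher at an adjusted p under 0.05 (H19, Igf2 and Sfmbt2, against 0.882% of all genes) and 0 were lower (0.615%). At an unadjusted p under 0.05, limma gave 4 higher, with Usp29 added (3.57%), and 3 lower, which were Meg3, Mirg and Mcts2 (2.83%). With normexp background correction 1 of the higher genes was called, Sfmbt2, with quantile normalization or only probes well above background 0 were, and other settings gave between 0 and 5 lower genes. For HoxA9-Ct against parental ES cells, limma called 0 higher (0.237%) and 0 lower (0.213%), and at an unadjusted p under 0.05 it gave 1 higher, Usp29 (2.02%), and 0 lower (1.42%). For Nup98-HoxA9 against the HoxA9-Ct clone, limma called 2 higher, H19 and Igf2 (0.774%), and 0 lower (0.661%). With normexp background correction neither was called there, and the 2 higher genes were Ppp1r9a and Sfmbt2. At an unadjusted p under 0.05 limma gave 5 higher against the HoxA9-Ct clone, with Peg12, Sfmbt2 and Nnat added (3%), although Nnat was below background in all lines, and 3 lower, which were Meg3, Mirg and Mcts2 (3.5%). The standard error of the log2 difference was 0.556 for Nup98-HoxA9 against either line and 0.642 for HoxA9-Ct against parental ES cells, for all probes alike. The SD between the clones was 0.99 for Igf2 and 1.05 for H19, above the pooled SD of 0.454. Their p-values therefore do not measure the spread of these genes between the clones.

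H19 and Igf2 rose from below background in both Nup98-HoxA9 clones. Igf2 encodes a fetal growth factor transcribed from the paternal copy, and H19 is a maternally transcribed noncoding RNA that shares its enhancers and its control region. The level of Igf2 was 0.0133 in parental ES cells and 0.0142 in the HoxA9-Ct clone, both below background, and 0.0936 in clone #1 and 0.248 in clone #9. The level in each clone thus lay above that in both other lines. Over parental ES cells it was at least 1.81-fold in clone #1 and at least 4.8-fold in clone #9. Each line has 1 array, and Igf2 was read at a single probe with 1 spot per array. Against parental ES cells the limma log2 difference was 3.52 (adjusted p = 1.39e-07), and against the HoxA9-Ct clone it was 3.42 (adjusted p = 4.45e-07). Clone #9 was 2.64-fold above clone #1.

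H19 followed the same pattern. Its level was 0.0422 in parental ES cells and 0.0288 in the HoxA9-Ct clone, below background in both, and 0.0941 in clone #1 and 0.262 in clone #9. This is at least 1.82-fold over parental ES cells in clone #1 and at least 5.08-fold in clone #9, with a limma log2 difference of 1.90 (adjusted p = 0.0477). Against the HoxA9-Ct clone the limma log2 difference was 2.45 (adjusted p = 0.00187). Of its 4 other probes that were read, 1 gave a limma log2 difference of 2.46 from parental ES cells (adjusted p = 0.00154). The rest did not pass, at adjusted p = 0.401, 0.708 and 0.821. The probes of H19 thus disagree on the call, and since the fitted differences of both genes start from signals below background, only the bounds give their sizes. With normexp background correction the limma log2 differences from parental ES cells were 0.57 for Igf2 (adjusted p = 0.446) and 0.50 for H19 (adjusted p = 0.762), and neither was called. In bulk RNA, a change in the number of cells that express a gene and a change in the RNA per cell cannot be told apart.

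Some, but not all, primitive endoderm markers were also higher in both Nup98-HoxA9 clones. This lineage of the early embryo can arise in ES cultures and is known to express both genes. Of 10 marker genes measured, 9 were detected in parental ES cells, 10 in each clone and 6 in the HoxA9-Ct clone. In both clones 6 exceeded parental ES cells by more than 2-fold (Gata6, Gata4, Sox17, Dab2, Pdgfra and Col4a1), against 0.909% of all genes. In the HoxA9-Ct clone 6 were more than 2-fold lower, against 0.491% of all genes. The log2 ratio of Gata6 to parental ES cells was 2.23 in clone #1, 2.53 in clone #9 and -1.39 in the HoxA9-Ct clone. The summed level of the 10 markers was 195.6 in parental ES cells, 192.9 in clone #1, 227.3 in clone #9 and 183.4 in the HoxA9-Ct clone. Sparc, Lama1 and Lamb1 made up most of each sum, and they did not rise by 2-fold in either clone. In clone #1 and clone #9 their log2 ratios were -0.06 and 0.23 for Sparc, 0.18 and 0.06 for Lama1, and -0.44 and 0.04 for Lamb1. The part of the 10 markers in the rise of H19 and Igf2 was not tested. The 9 markers of pluripotent ES cells were detected in all 4 lines, with summed levels of 1141 to 1297.

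In the Dlk1-Meg3 domain on chromosome 12, the maternally transcribed RNAs were lower and Dlk1 was higher in clone #9. Meg3 and Mirg are noncoding RNAs of the maternal copy, and a long run of microRNAs is made from the same strand. Dlk1, on the paternal copy, encodes a transmembrane inhibitor of adipocyte differentiation. The regions just before their starts are shown because Meg3 and Dlk1 differed in opposite directions in clone #9, together with those of Mest, Mcts2 and Sfmbt2, whose levels follow. Capitals mark the letters TGCCGC or, on the other strand, GCGGCA, which ZFP57 recognises when methylated. Each sequence is the 250 bases before a RefSeq start on GRCm38.p6, plus strand, at chr12:109540746-109540995 for Meg3, chr12:109452573-109452822 for Dlk1, chr6:30737800-30738049 for Mest, chr2:152686898-152687147 for Mcts2, and chr2:10370201-10370450 and chr2:10372186-10372435 for 2 starts of Sfmbt2.
Meg3: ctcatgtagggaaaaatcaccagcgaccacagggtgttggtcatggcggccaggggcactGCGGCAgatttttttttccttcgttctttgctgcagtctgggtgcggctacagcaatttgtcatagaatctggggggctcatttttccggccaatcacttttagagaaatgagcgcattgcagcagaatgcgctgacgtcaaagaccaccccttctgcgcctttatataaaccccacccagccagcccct
Dlk1: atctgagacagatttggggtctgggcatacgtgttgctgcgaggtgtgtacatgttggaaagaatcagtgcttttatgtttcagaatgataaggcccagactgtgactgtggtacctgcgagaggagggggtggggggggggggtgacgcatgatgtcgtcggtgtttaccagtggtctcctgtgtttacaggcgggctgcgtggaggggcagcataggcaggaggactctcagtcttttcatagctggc
Mest: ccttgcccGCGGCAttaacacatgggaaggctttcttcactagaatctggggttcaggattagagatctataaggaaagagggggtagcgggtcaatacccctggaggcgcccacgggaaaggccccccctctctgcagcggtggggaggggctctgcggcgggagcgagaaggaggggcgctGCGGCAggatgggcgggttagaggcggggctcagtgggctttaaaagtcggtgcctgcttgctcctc
Mcts2: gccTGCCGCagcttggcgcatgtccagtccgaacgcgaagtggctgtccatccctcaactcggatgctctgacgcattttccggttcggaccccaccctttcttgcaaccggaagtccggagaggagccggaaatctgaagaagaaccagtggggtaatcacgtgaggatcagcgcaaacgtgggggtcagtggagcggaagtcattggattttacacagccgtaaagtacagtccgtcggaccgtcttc
Sfmbt2, upstream start: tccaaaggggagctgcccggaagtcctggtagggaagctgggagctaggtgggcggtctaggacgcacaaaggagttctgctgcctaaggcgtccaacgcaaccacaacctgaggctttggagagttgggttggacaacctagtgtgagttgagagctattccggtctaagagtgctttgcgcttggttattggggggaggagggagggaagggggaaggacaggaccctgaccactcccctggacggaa
Sfmbt2, downstream start: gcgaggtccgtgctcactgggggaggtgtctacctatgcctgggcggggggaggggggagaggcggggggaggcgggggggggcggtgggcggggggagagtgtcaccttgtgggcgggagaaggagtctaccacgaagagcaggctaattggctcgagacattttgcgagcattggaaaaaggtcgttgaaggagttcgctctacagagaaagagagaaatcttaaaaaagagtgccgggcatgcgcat

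The motif stands 190 bases before the start of Meg3, 242 and 67 bases before that of Mest and 247 bases before that of Mcts2, counted to its first base, and is in neither the Dlk1 nor the Sfmbt2 sequences. Over windows of 300 bases, which add 50 bases after the start, 11 of 40 imprinted genes with a window hold the motif, which is 27.5% against 13.05% of 27025 genes. A gene can have several windows, and counted by window the shares were 12 of 61 (19.67%) against 11.61% of 32851. The 11 genes were Mcts2, Nnat, Mest, Copg2, Zim1, Snrpn, Igf2, Osbpl5, Plagl1, Grb10 and Meg3. Imprinted gene windows were also richer in CpG, with a median of 13 against 7 over all windows. A match is a run of letters and not a measured binding site.

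Meg3 had a level of 29.2 in parental ES cells, 17.6 in clone #1, 7.58 in clone #9 and 31.3 in the HoxA9-Ct clone. Clone #9 was thus lowest, 3.86-fold below parental ES cells, while the HoxA9-Ct clone lay beside parental ES cells. The other probes of Meg3 gave log2 ratios of -2.62 and -2.25 in clone #9, -1.08 and -0.92 in clone #1 and -0.09 and -0.05 in the HoxA9-Ct clone, so all of its probes put clone #9 lowest and clone #1 next. Mirg had levels of 12.2, 8.21, 3.06 and 15.1 in the same order of lines, 3.99-fold lower in clone #9 than in parental ES cells. Dlk1 ran the other way, with 0.564 in parental ES cells, 0.491 in clone #1, 1.24 in clone #9 and 0.393 in the HoxA9-Ct clone. It was 2.21-fold above parental ES cells in clone #9 and 2.53-fold above clone #1.

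The limma fit against parental ES cells did not call these genes: the log2 difference of Meg3 was -1.34 (adjusted p = 0.41) and Mirg had an adjusted p of 0.483. Meg3 and Mirg were called lower with normexp background correction and with a floor at the weakest detected signal, and Meg3 also with trend and robust estimation. RefSeq places 57 microRNA hairpins between the start of Meg3 and the end of Mirg, 10 of them within Mirg, but the microRNAs were not measured here. Rtl1, a retrotransposon-derived gene on the paternal copy, was below background in all lines. Dio3, a deiodinase gene of the same domain outside the 50, had log2 ratios to parental ES cells of -0.39 in clone #1, 1.89 in clone #9 and 1.71 in the HoxA9-Ct clone. The genes flanking the domain, up to 10 on each side, had a median log2 ratio of -0.16 in clone #9, with a range of -0.82 to 1.45.

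Mcts2 showed the widest gap between the clones among the 48 genes. It is a retrocopy of Mcts1, a translation regulator, and lies in an intron of H13, the gene of a signal peptide peptidase. Its level was 13.7 in parental ES cells, 11 in clone #1, 1.30 in clone #9 and 12.5 in the HoxA9-Ct clone. Clone #9 alone stood apart, 10.5-fold below parental ES cells and 8.46-fold below clone #1, and limma gave an adjusted p of 0.0584 for the 2 clones together. Mcts2 was read at a single probe with 1 spot per array, so its value in clone #9 rests on 1 spot. Mcts2 was called lower with normexp background correction and with the same floor. Mcts1 on the X chromosome, read after the value of Mcts2 was seen, had log2 ratios to parental ES cells of -0.09 in clone #1, -0.28 in clone #9 and 0.05 in the HoxA9-Ct clone. H13 was read in the same way, and its transcripts are known to end at alternative sites around Mcts2. In clone #9 its 4 probes split, with log2 ratios of 0.68, 0.70, -0.31 and -1.25. In clone #1 they were 0.03, 0.10, -0.09 and -0.70 and in the HoxA9-Ct clone 0.11, 0.05, 0.17 and -0.49, in the same order of probes, and the place of each probe in H13 was not known here. The flanking genes of Mcts2 had a median of -0.24 in clone #9, with a range of -1.97 to 0.36.

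Mest, a paternally transcribed hydrolase gene linked to fetal growth, was lower in both Nup98-HoxA9 clones. Its level was 8.86 in parental ES cells and 8.57 in the HoxA9-Ct clone, against 4.50 in clone #1 and 3.99 in clone #9. The clones lay below both other lines, 1.97-fold under parental ES cells in clone #1 and 2.22-fold in clone #9. The brightest probe of Mest has 10 spots per array, and the SD between them was 0.05 to 0.07 on the log2 scale. The other probes gave log2 ratios of -1.01 and -1.17 in clone #1, -1.14 and -1.22 in clone #9 and -0.06 and -0.16 in the HoxA9-Ct clone. The limma log2 difference from parental ES cells was -1.06, with an adjusted p of 0.852, so the difference did not pass the test with an SE of 0.556. It was called lower with normexp background correction and with trend and robust estimation. Copg2, a coat protein gene next to Mest, had levels of 5.01, 6.24, 4.67 and 5.17 in parental ES cells, clone #1, clone #9 and the HoxA9-Ct clone, and Klf14 was below background in all lines. Genes flanking the domain had a median log2 ratio of 0.05 in clone #1 and 0.01 in clone #9.

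Sfmbt2 rose in both clones. It encodes a Polycomb group protein transcribed from the paternal copy in early embryonic and extraembryonic tissue, and one of its introns holds a large microRNA cluster. Its level was 0.667 in parental ES cells, 3.18 in clone #1, 3.04 in clone #9 and 1.38 in the HoxA9-Ct clone. The clones were nearly alike, 4.77-fold and 4.56-fold above parental ES cells, and the HoxA9-Ct clone lay between at 2.07-fold. The limma log2 difference of the clones from parental ES cells was 2.22 (adjusted p = 0.00771). A second probe gave log2 ratios of 2.16 in clone #1, 2.03 in clone #9 and 1.29 in the HoxA9-Ct clone (adjusted p = 0.0162 for the clones). Its remaining probe was below background in parental ES alone and at least 3.06-fold higher in clone #1, at least 3.08-fold in clone #9 and at least 1.69-fold in the HoxA9-Ct clone. Genes flanking Sfmbt2 had medians of 0.05, -0.13 and -0.02 in clone #1, clone #9 and the HoxA9-Ct clone. Trophectoderm markers, another tissue that transcribes Sfmbt2, were detected for 2 of 8 genes in parental ES cells, 4 in clone #1, 6 in clone #9 and 1 in the HoxA9-Ct clone, with summed levels of 0.874, 1.46, 1.64 and 1.14. Eomes was the largest term of each sum, with log2 ratios to parental ES cells of 0.67 in clone #1, 0.02 in clone #9 and 0.46 in the HoxA9-Ct clone. The part of the trophectoderm markers in the rise of Sfmbt2 was not tested.

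**Figure D3:**
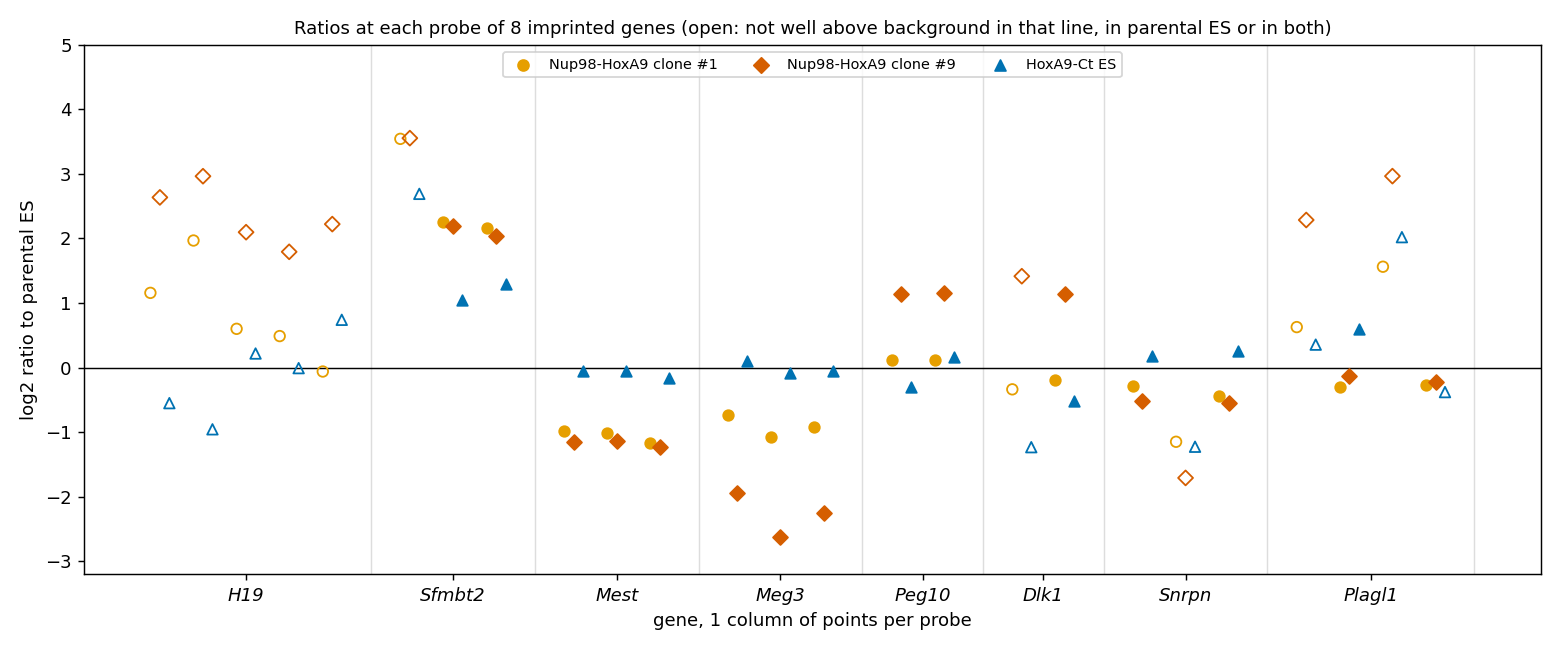
The log2 ratio to parental ES cells of every probe that was read is drawn for selected imprinted genes, 1 point per probe and line. Points are open where a probe is not well above background in the line or in parental ES cells. All probes of Meg3 and Mest lie below 0 in both clones, and all probes of Sfmbt2 lie above 0 in all 3 lines.

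Where a gene had more than 1 probe detected in all lines, the probes gave similar ratios. Over 12 such genes, the median range between probes was 0.149 in clone #1, 0.214 in clone #9 and 0.216 in the HoxA9-Ct clone on the log2 scale. The widest were 0.675 in clone #1 and 0.744 in clone #9, both for Ddc, and 0.913 for Peg12 in the HoxA9-Ct clone.

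In the Peg10 domain the paternally transcribed Peg10 and Sgce, and also Asb4, were more than 2-fold higher in clone #9 than in parental ES cells. Peg10 is a retrotransposon-derived gene needed for the placenta, and Sgce, which shares its promoter region, encodes a sarcoglycan. The level of Peg10 was 0.417 in parental ES cells, 0.454 in clone #1, 0.914 in clone #9 and 0.340 in the HoxA9-Ct clone, and that of Sgce was 0.253, 0.346, 0.609 and 0.224. Clone #9 was highest at both, 2.19-fold and 2.40-fold above parental ES cells, and a second probe of Peg10 gave 2.23-fold. Asb4, a substrate adaptor of ubiquitin ligases, was detected in clone #9 alone at its brightest probe, at least 2.21-fold above parental ES cells. Its second probe was below background in all lines, and with the mean over probes Asb4 did not pass 2-fold in clone #9. Ppp1r9a, which encodes the actin-binding protein neurabin, had levels of 3.82, 5.15, 4.44 and 2.74. The 14 flanking genes had a median log2 ratio of -0.02 in clone #9, with a range of -1.14 to 0.21.

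**Figure D4:**
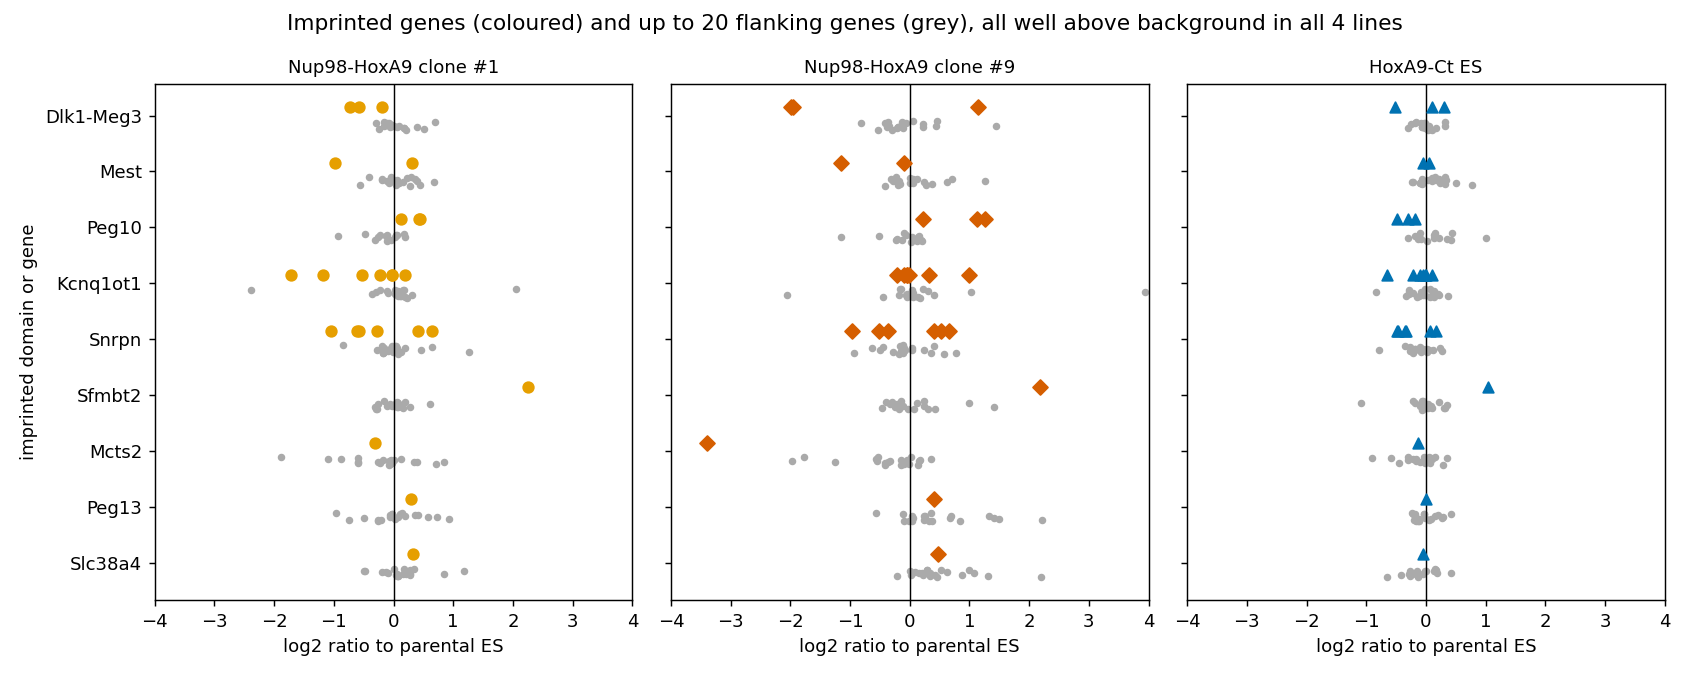
The log2 ratio to parental ES cells is drawn for imprinted genes (coloured) and for up to 10 detected genes on each side of their domain (grey), in clone #1, clone #9 and the HoxA9-Ct clone. The median of the flanking genes of Mest, Peg10 and Dlk1-Meg3 lies between -0.16 and 0.13 in all 3 lines, while Meg3 is at -1.95 and Peg10 at 1.13 in clone #9.

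In the Kcnq1ot1 domain, Cdkn1c and Ascl2 were more than 2-fold lower in clone #1 than in parental ES cells. Kcnq1ot1 is the paternal noncoding RNA that silences this neighbourhood, Cdkn1c encodes the cell cycle inhibitor p57, and Ascl2 is a transcription factor of the placenta. Cdkn1c had levels of 7.11 in parental ES cells, 2.17 in clone #1, 6.93 in clone #9 and 4.53 in the HoxA9-Ct clone, and Ascl2 had 2.96, 1.31, 3.71 and 2.86. Clone #1 was lowest at both genes, 3.28-fold and 2.27-fold under parental ES cells and 3.19-fold and 2.84-fold under clone #9. Kcnq1ot1 itself lay at 1.51, 1.29, 1.30 and 1.29. Slc22a18, a transporter gene, was also lowest in clone #1, with levels of 2.76, 1.93, 2.74 and 2.59. Osbpl5, which encodes a lipid transfer protein, was at 0.963, 0.945, 1.91 and 0.953, so that clone #9 stood 2.02-fold above clone #1. The tetraspanin gene Cd81 (48.6, 55.8, 46.9 and 48.6) and Tssc4 (13.1, 12.8, 12.2 and 14.0) stayed within 1.5-fold of parental ES cells. Phlda2, which restrains placental growth, had log2 levels of 2.48 in parental ES cells, 2.04 in clone #9 and 2.14 in the HoxA9-Ct clone and no value in clone #1.

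Grouped by the copy that is transcribed, 9 of 15 maternally expressed genes were detected in all lines, with median log2 ratios of -0.52 in clone #1, -0.10 in clone #9 and 0.04 in the HoxA9-Ct clone. In clone #1, 8 of these 9 lay below 0, as did 11 of the 18 paternally expressed genes so detected. The share of all genes below 0 was not counted, so these counts have no background. Listed genes outside the 15 maternally and 24 paternally expressed ones are in neither group. Genes of 1 domain are among the 9, such as Cdkn1c, Ascl2 and Slc22a18, so they are not separate observations. The 18 of 24 paternally expressed genes so detected had medians of -0.21, 0.09 and -0.15. Over all 19238 genes the medians were -0.02, -0.10 and 0.00.

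In the Snrpn domain the ratios were mixed. Snrpn, a splicing protein gene, had levels of 6.38 in parental ES cells, 5.25 in clone #1, 4.47 in clone #9 and 7.18 in the HoxA9-Ct clone. Ndn and Magel2 encode MAGE proteins, and Ndn lay at 0.334, 0.446, 0.444 and 0.352 while Magel2 lay at 0.140, 0.0677, 0.201 and 0.110. Magel2 was thus 2.97-fold higher in clone #9 than in clone #1, on either side of parental ES cells. The ring finger gene Mkrn3 was highest in parental ES cells, with 0.489, 0.319, 0.252 and 0.353, and so was Ube3a, a ubiquitin ligase gene imprinted in neurons, with 1.90, 1.26, 1.48 and 1.5. Peg12 had 0.201, 0.313, 0.316 and 0.144, and both clones were more than 2-fold above the HoxA9-Ct clone at Peg12 and Sfmbt2 (0.712% of all genes) and below it at 0 genes (0.879%). The second probe of Peg12, detected in all lines, had log2 ratios to parental ES cells of 0.60 in clone #1, 0.86 in clone #9 and 0.43 in the HoxA9-Ct clone, so the difference at Peg12 rests on 1 of 2 probes.

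In the Peg3 domain, the zinc finger gene Peg3 was highest in parental ES cells (0.395, against 0.215 in clone #1, 0.297 in clone #9 and 0.245 in the HoxA9-Ct clone). Usp29, a deubiquitinase gene, was below background in parental ES cells and clone #1 and detected in clone #9 and the HoxA9-Ct clone, at least 2.71-fold and 1.94-fold above parental ES cells. In the Igf2r domain, Igf2r, the receptor that clears IGF2, had levels of 3.38, 3.22, 3.90 and 3.32 in parental ES cells, clone #1, clone #9 and the HoxA9-Ct clone, and its antisense RNA Airn 0.268, 0.274, 0.268 and 0.297. Both stayed within 1.5-fold, as did the adaptor gene Grb10 (2.71, 2.55, 1.91 and 3.05). Its neighbour Ddc, which encodes a decarboxylase of amine synthesis, had 8.28, 4.74, 7.52 and 11.8. the HoxA9-Ct clone was highest and clone #1 lowest at Ddc, at the brightest probe.

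Plagl1, a zinc finger gene that is known to regulate other imprinted genes, had levels of 0.145, 0.118, 0.133 and 0.219 in parental ES cells, clone #1, clone #9 and the HoxA9-Ct clone at its brightest probe. Of its 3 other probes, 2 were detected in clone #9 alone, so the probes of Plagl1 disagree. Phactr2, a phosphatase and actin regulator gene, had 0.159, 0.251, 0.267 and 0.147, higher in both clones than in the other lines. Blcap, in an intron of which Nnat lies, had 1.36, 1.28, 1.06 and 1.39.

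The genes of the Peg13 domain lie on chromosome 15. Over 637 probes of this chromosome, the median log2 ratio to parental ES cells was 0.40 in clone #9, against -0.09 on the other chromosomes, and its part in the values that follow was not tested. Trappc9, a trafficking gene, had levels of 8.77 in parental ES cells, 10.7 in clone #1, 11.7 in clone #9 and 8.76 in the HoxA9-Ct clone. Slc38a4, an amino acid transporter gene on the same chromosome, had 8.75, 11, 12.1 and 8.42, so both were highest in clone #9, where the medians of their flanking genes were 0.29 and 0.34. Kcnk9, a potassium channel gene, differed in the other direction and was detected in parental ES cells (0.0879) and clone #1 (0.0931) but not in clone #9 or the HoxA9-Ct clone, with parental ES cells at least 2.16-fold and 1.65-fold higher.

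Among genes listed singly, 4 more stayed within 1.5-fold of parental ES cells in all lines. Gnas, which encodes a G protein subunit, had levels of 19.6, 21.5, 22.6 and 15.8 in parental ES cells, clone #1, clone #9 and the HoxA9-Ct clone. Impact, a translation regulator gene, had 11.9, 9.16, 9.10 and 13.4, Zrsr1, a splicing factor gene, 1.70, 1.59, 1.93 and 1.48, and Inpp5f, a phosphatase gene, 0.327, 0.254, 0.290 and 0.338. The other probe of Impact was below background in all lines.

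Genes that set or keep imprints were measured as well. Of 25 listed regulators 24 were measured, all detected in all 4 lines, and 0 were beyond 2-fold of parental ES cells in both clones. Ctcfl, a germ-line relative of CTCF, was the 1 regulator beyond 2-fold in the HoxA9-Ct clone, with log2 ratios of -0.59 in clone #1, 1.02 in clone #9 and -1.01 in the HoxA9-Ct clone. Dppa3, which protects imprints from demethylation in the zygote, had -0.52, -1.62 and -0.04. Between the clones, Ctcfl was the 1 regulator more than 2-fold higher in clone #9 (2.72% of all genes) and Dppa3 the 1 lower (0.825%). The part of the regulators in the values of the imprinted genes was not tested. Of 37 further imprinted genes outside the 50, 33 were measured and 22 detected in all lines. There, limma called Atp10a lower (adjusted p = 0.00775) and Dlx5 higher (adjusted p = 3.43e-07) in Nup98-HoxA9 against parental ES cells, but Atp10a was detected in parental ES alone and Dlx5 in clone #9 alone.

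Markers of other cell types also differed between the lines, some in clone #9 and some in both clones. Of 8 fibroblast or feeder markers, 3 were detected in parental ES cells, clone #1 and the HoxA9-Ct clone and 4 in clone #9. Their summed levels in this order of lines were 7.71, 9.38, 10.7 and 17.5, and Thy1 alone made up most of each sum. Lum, Dcn and Postn were below background in all lines. In clone #9 the log2 ratios to parental ES cells were 1.93 for Col1a1 and 1.17 for Thy1. Col1a2 was detected in both clones but not in parental ES cells, S100a4 in clone #9 and the HoxA9-Ct clone, and Col3a1 in parental ES cells alone. Of 5 mesoderm markers 2 were detected in each line, and of 5 neural markers 4 in parental ES cells and the HoxA9-Ct clone and 3 in each clone. The neural marker Pax6 was detected in parental ES cells and the HoxA9-Ct clone but in neither Nup98-HoxA9 clone. For Nup98-HoxA9 against parental ES cells, limma called Pax6 lower (adjusted p = 6.46e-05). The part of these markers in the differences at Igf2, Dlk1, Peg10 and the other genes was not tested.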

How the data were processed

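Total RNA was labelled with Cy3 and hybridised to SurePrint G3 Mouse GE 8×60K arrays in one colour, 1 per line. The authors read the images with Feature Extraction 10.10.1.1 software, and the deposited intensity values are background-subtracted and spatially detrended, with no scaling between arrays. The 59305 non-control spots per array had a 75th percentile of 209 to 253, 49.9% to 53.0% were well above background and 0 were saturated. The log2 of the processed intensity was taken relative to this percentile, and spots of a probe were averaged without outliers (143 to 201 per array). RefSeq accessions named 26762 of 55681 probes. H19 was read at 5 probes named by the array annotation, and not at those under its older transcript name. The groups were fitted in limma 3.58.1 (R 4.3.3) over 55562 probes (3 groups, 1 residual degree of freedom, infinite prior degrees of freedom, prior SD of 0.454, Benjamini-Hochberg). The fit was also run on simulated data, with a spread common to all probes or following the level. A spread particular to a gene was not simulated, so that run does not check calls at genes whose clones differ widely. Counting used Python 3.11.15 with numpy 2.4.6 and pandas 2.3.3. The members and gene lists were chosen with earlier results of these data known. All members are accounted for, and other genes are named only from the lists of regulators and further imprinted genes where limma called them or they passed 2-fold in both clones or in HoxA9-Ct ES, or where a result turned on them. Promoter sequences are those of RefSeq on GRCm38.p6, whereas mm9 is the build of the array annotation. Counts beyond 2-fold have no test.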

Additional observations from a re-analysis of the deposited data

Results flagged for a closer look

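H19 and Igf2 differed between the Nup98-HoxA9 clones and the HoxA9-Ct clone by limma, with fitted log2 differences of 2.45 and 3.42, and were higher in 2 of 2 clones. Both genes were below background in the HoxA9-Ct clone, so their sizes are bounds, at least 2.95-fold for H19 and at least 2.86-fold for Igf2. Neither call was kept with normexp background correction, with quantile normalization or with only probes well above background.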

How the results depend on the processing

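Over the single genes, 370 values under other settings kept direction and side of the threshold, 28 moved, 10 became stronger, 10 weaker and 2 reversed, which were Plagl1 (-0.21 to 0.82) and Impact (-0.38 to 0.35) with the mean over probes. Of the counts, 128 were kept, 18 moved, 6 became stronger and 6 weaker. For Nup98-HoxA9 against parental ES, limma called 3 higher genes, 1 with normexp, 0 with quantile normalization and 0 with only probes well above background, and 0 lower genes, 5 with normexp (Cdkn1c, Mest, Meg3, Mirg and Mcts2), 3 with a floor (Meg3, Mirg and Mcts2) and 2 with trend and robust (Mest and Meg3). Against HoxA9-Ct ES it called 2 higher, other genes with normexp (Ppp1r9a and Sfmbt2), 0 with quantile normalization, 1 with the mean over probes and 0 with only probes well above background, and 0 lower, 5 with normexp, 3 with a floor and 3 with trend and robust. The adjusted p of Igf2 against parental ES was 0.446 with normexp, 0.558 with quantile normalization and 0.575 with only probes well above background, that of H19 was 0.0646 with median scaling and 0.184 with the mean over probes, and that of Sfmbt2 was 0.42 with quantile normalization and 0.304 with only probes well above background. The count beyond 2-fold in both clones was 1 higher, 5 at 1.5-fold and 1 to 8 leave-one-out, where clone #9 alone gives 8, and 0 lower, 1 with the mean over probes (Mest), 3 at 1.5-fold and 3 to 5 leave-one-out. For HoxA9-Ct it was 1 higher, 0 with normexp, 0 with median scaling, 0 at 3-fold and 3 at 1.5-fold, and 0 lower, 1 with the mean over probes (Peg3) and 3 at 1.5-fold. Between the clones it was 10 higher, 2 with normexp (Cdkn1c and Ascl2) and 1 at 3-fold (Cdkn1c), and 4 lower, 1 at 3-fold (Mcts2). In all 3 lines it was 1 higher, 0 with normexp, 0 with median scaling and 0 at 3-fold. The cause of these changes was not tested. Genes detected by any probe, flanking genes and the probes of Mcts1 and H13 were read after the data were seen. No paired analysis was possible because the groups share fewer than 2 replicate numbers. Without either clone limma has no residual degrees of freedom, so those counts have no test. Naming probes by gene name and detection by the mean over probes were not run, and normexp used the median signal of the spot. The number of arrays, 4, limits the precision.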
